A study of Mus musculus with 12 samples.

Results

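The plasminogen activator system was read through 6 listed genes in 4 fibroblast populations of newborn mouse dermis. They were the activators Plat and Plau, the receptor Plaur, and the serpins Serpine2, Serpinf1 and Serpinb2. They were listed by function, and the set was chosen on the measured log2 difference of Plat between papillary cells and the other populations. The platform annotation used here named a probe set for 5 of the 6 genes, among 17097 genes in all, and Serpine2 was not analysed here. Transcripts were measured on 12 Affymetrix arrays, 1 for each of 4 sorted populations from each of 3 female littermates aged 2 days. Papillary cells carried CD26 at their surface and neither Dlk1 nor Sca1. Dlk1- Sca1+ cells and Dlk1+ Sca1+ cells, both named pre-adipogenic by the submitters, carried no CD26. Reticular cells carried Dlk1 and neither CD26 nor Sca1. Every population was gated as positive for Pdgfra and CD34 and negative for CD45, CD117, CD31 and EpCam, after removal of the layer under the dermis. Strain and genotype are not stated in the labels, and 4500 cells gave the RNA of each array, amplified over 21 cycles.

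Plasminogen is a circulating zymogen that tissue-type activator, encoded by Plat, and urokinase, encoded by Plau, cleave to the broad protease plasmin. Plasmin degrades fibrin and other matrix proteins and releases or activates growth factors, and the urokinase receptor, encoded by Plaur, holds urokinase at the cell surface. Serpins are a protein family best known for inhibitors that trap their target protease. Serpine2 encodes protease nexin, which inhibits thrombin, urokinase, tissue-type activator and plasmin, and Serpinb2 encodes a mostly intracellular urokinase inhibitor. Serpinf1 encodes pigment epithelium-derived factor, a secreted serpin that inhibits no known protease and is known as a restraint on blood vessel growth.

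Sorting transcripts were read first. Ly6a, which encodes Sca1, was not among the genes read here, so the Sca1 gates were not checked by transcript. Dpp4, which encodes CD26, lay between 10.18 and 10.97 on the log2 scale in papillary cells, and between 6.10 and 6.53 on the 9 arrays of the other populations. Dlk1 lay between 9.82 and 10.10 in papillary cells, between 11.18 and 11.54 in Dlk1- Sca1+ cells, between 12.82 and 12.90 in Dlk1+ Sca1+ cells and between 12.90 and 13.04 in reticular cells, so the transcript was above the papillary level in cells gated without Dlk1. The 8 fibroblast markers averaged 11.07 to 11.57 per array. The 9 macrophage and other immune markers averaged 5.21 to 5.50. The 8 keratinocyte markers averaged 9.91 in the Dlk1- Sca1+ array of animal 1, against 6.59 to 8.21 on the other 11 arrays, and Epcam was at 8.62 there. The whole table ran from 3.30 to 13.27, and 5% of its values lay under 4.06.

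Of the 6 members, 4 had a window of 250 bases before the gene start in RefSeq's GRCm38.p6 set, namely Plaur, Serpine2, Serpinf1 and Serpinb2. The windows of Plaur and Serpinf1 are printed because these genes have a window and a measured level that differed among the populations without CD26. Capitals mark matches, on either strand, to 4 promoter motifs. The TATA box was searched as TATAAA. The GC box was searched as GGGCGG. The AP-1 site was searched as TGANTCA, and the CCAAT box by the letters of its name. Each window reads 5′ to 3′ on its gene's strand, chr7:24462233-24462482 on the plus strand for Plaur and chr11:75422624-75422873 on the minus strand for Serpinf1.
Plaur: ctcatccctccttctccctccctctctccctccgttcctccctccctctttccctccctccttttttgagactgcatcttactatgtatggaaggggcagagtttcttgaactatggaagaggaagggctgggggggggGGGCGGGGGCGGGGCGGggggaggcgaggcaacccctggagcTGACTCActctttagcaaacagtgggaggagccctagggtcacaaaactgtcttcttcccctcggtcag
Serpinf1: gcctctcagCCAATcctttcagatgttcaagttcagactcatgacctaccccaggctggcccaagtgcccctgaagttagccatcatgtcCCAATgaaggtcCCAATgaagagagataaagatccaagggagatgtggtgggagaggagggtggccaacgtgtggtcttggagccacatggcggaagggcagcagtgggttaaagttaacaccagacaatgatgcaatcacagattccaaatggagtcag
The Plaur window held 3 GC boxes, starting at -111, -105 and -100 from the gene start, the last pair sharing 1 base, and 1 AP-1 site at -69. The Serpinf1 window held 3 CCAAT boxes, at -241, -160 and -148, and neither window held TATAAA. Among 32851 such windows of the mouse genome, 32.7% held a GC box, 6.75% an AP-1 site, 33.8% a CCAAT box and 12.4% a TATA box. Bases G and C made up 59.6% of the Plaur window and 51.6% of the Serpinf1 window. These matches describe letters, and binding of a factor was not measured.

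Plat, the tissue-type activator, was low in papillary cells and high in the other populations. Its log2 RMA values in animals 1, 2 and 3 were 4.88, 4.93 and 4.73 in papillary cells. They were 10.37, 10.48 and 10.41 in Dlk1- Sca1+ cells, 10.10, 10.27 and 10.30 in Dlk1+ Sca1+ cells, and 9.75, 10.06 and 9.81 in reticular cells. The gap between the highest papillary array and the lowest other array was 4.82. Because this gap chose the gene, it is given with no test. The papillary minus reticular log2 difference was -5.03 ± 0.09 (SE, n = 3 animals per population), a 32.6-fold difference that ranked 4 from the lowest of 17097 genes. Against Dlk1+ Sca1+ cells it was -5.38, or 41.5-fold, and against Dlk1- Sca1+ cells -5.57, or 47.6-fold. These folds may be understated, since the papillary values lay near the low end of the table, where a microarray signal flattens. They are no lower bound, since a dimmer Plat probe set, given below, had smaller log2 differences, from -2.04 to -2.62. In bulk samples of sorted cells, fewer cells with a transcript and less of it per cell cannot be told apart.

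**Figure D1:**
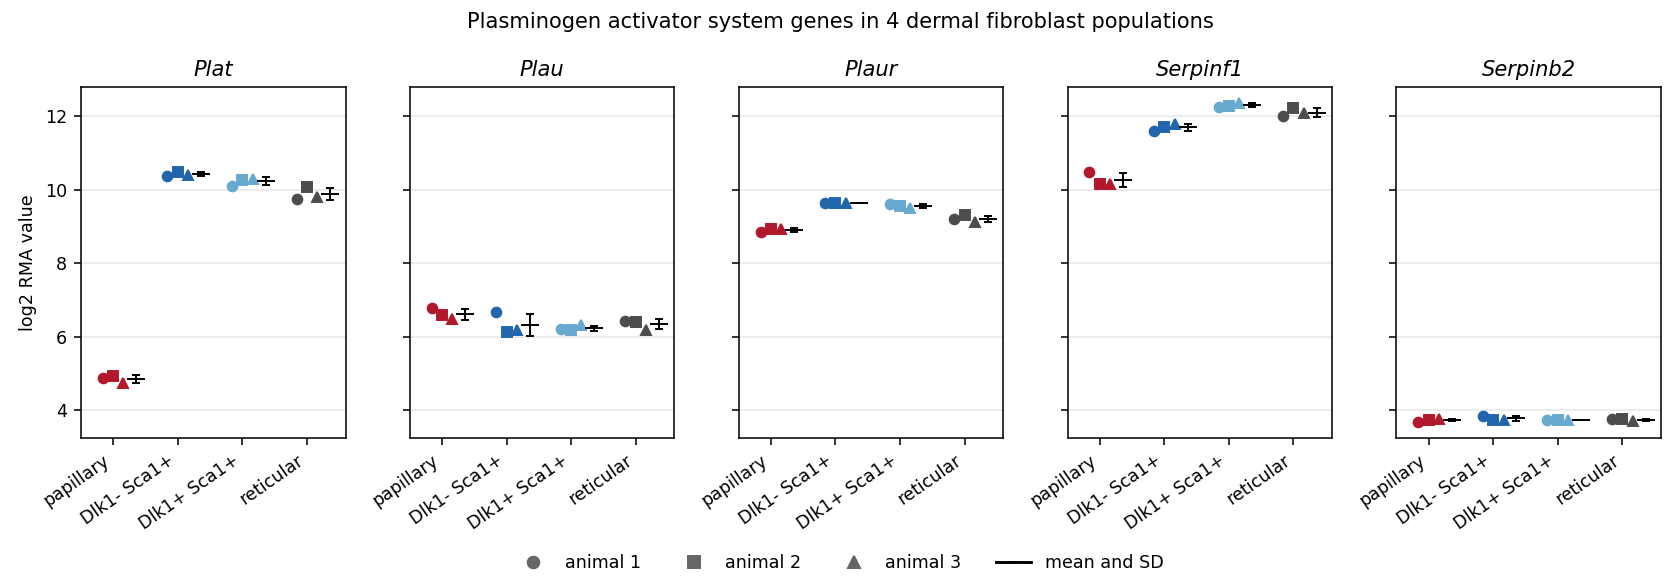
Log2 RMA values (y axis) of the 5 measured members in papillary, Dlk1- Sca1+, Dlk1+ Sca1+ and reticular cells (x axis), with 1 symbol per animal and the mean and SD over 3 animals beside them. Plat lay at 4.73 to 4.93 in papillary cells and at 9.75 to 10.48 elsewhere, and Serpinb2 stayed between 3.69 and 3.85 on every array.

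Among the populations without CD26, whose differences from each other did not choose the gene, Plat was higher in Dlk1- Sca1+ than in reticular cells. The difference was 0.55 ± 0.09 on the log2 scale (limma, adjusted p = 0.00128), with the Sca1+ value higher in 3 of 3 animals and no overlap between the groups. It stayed under the threshold of 0.05 in all 23 alternative settings, where the adjusted p ran from 0.000276 to 0.0406. None of these settings read the dimmer Plat probe set alone, which is given below and did not show this difference. Dlk1+ Sca1+ cells exceeded reticular cells by 0.35 ± 0.09 (limma, adjusted p = 0.0389), again in 3 of 3 animals, but the nearest arrays of these populations lay only 0.04 apart. The 23 settings kept this direction, yet 12 of them passed the threshold, with the adjusted p between 0.00746 and 0.430. It was missed without animal 1 (0.132), animal 2 (0.0830) or animal 3 (0.430), without Dlk1+ Sca1+ array 2 (0.117) or 3 (0.152), without reticular array 1 (0.135) or 3 (0.132), without papillary array 1 (0.0532) or 2 (0.0506), without Dlk1- Sca1+ array 3 (0.0535), and in the fit of the 6 arrays alone (0.101). Between the Sca1+ populations the difference was 0.20, with a 95% interval from -0.01 to 0.40 (limma, adjusted p = 0.296). In order of level, Dlk1- Sca1+ came first, then Dlk1+ Sca1+, reticular and papillary cells, and the first pair did not differ past the threshold.

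A dimmer Plat probe set put papillary cells lowest too but gave another order above them. It read 5.54, 5.70 and 5.65 in papillary cells, 7.69, 7.44 and 8.15 in Dlk1- Sca1+ cells, 8.22, 8.17 and 8.37 in Dlk1+ Sca1+ cells, and 7.68, 7.79 and 7.54 in reticular cells. The papillary log2 differences were smaller than with the brighter probe set, at -2.04 from reticular, -2.62 from Dlk1+ Sca1+ and -2.13 from Dlk1- Sca1+ cells. Here Dlk1+ Sca1+ cells exceeded reticular cells by 0.58 ± 0.14 (limma over every named probe set, adjusted p = 0.0266). Dlk1- Sca1+ cells differed from reticular cells by 0.09 ± 0.14 (adjusted p = 0.783) and from Dlk1+ Sca1+ cells by -0.49 ± 0.14 (adjusted p = 0.0645). The call of Dlk1- Sca1+ over reticular cells, at 0.55 with the brighter probe set, was therefore not met with the dimmer one. The sign of the difference between the Sca1+ populations also turned with the probe set, but neither probe set called it. Which of the probe sets reads Plat more accurately was not tested.

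**Figure D2:**
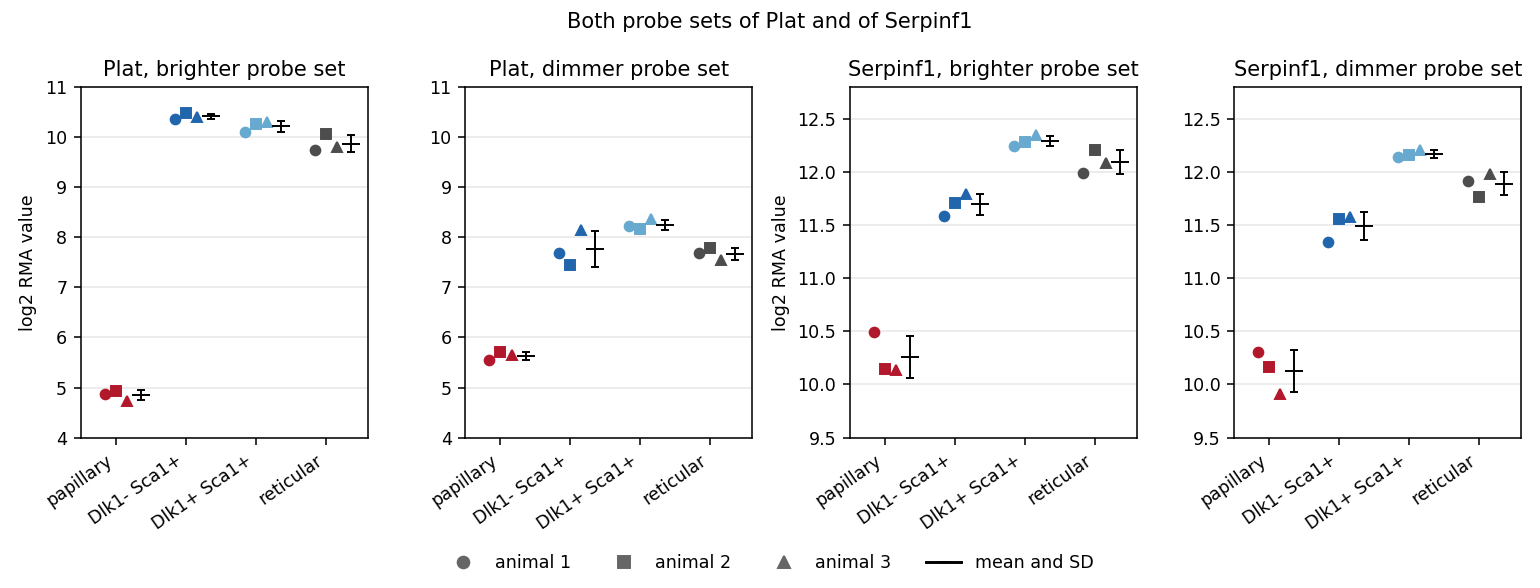
Log2 RMA values (y axis) of the brighter and the dimmer probe set of Plat (left pair of panels) and of Serpinf1 (right pair, on a narrower axis) in papillary, Dlk1- Sca1+, Dlk1+ Sca1+ and reticular cells, with 1 symbol per animal and the mean and SD over 3 animals. The dimmer Plat probe set puts Dlk1- Sca1+ cells, at 7.44 to 8.15, below Dlk1+ Sca1+ cells, at 8.17 to 8.37, while the Serpinf1 probe sets give 1 order.

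Markers of other cells that could enter the gates were set beside Plat, which vessel lining cells are known to release. The 8 endothelial markers averaged 5.56 to 5.70 per array in papillary cells, 6.25 to 6.61 in Dlk1- Sca1+ cells, 6.14 to 6.87 in Dlk1+ Sca1+ cells and 6.13 to 6.38 in reticular cells. Papillary cells had 3 of these 8 called lower against reticular, 4 against Dlk1+ Sca1+ and 2 against Dlk1- Sca1+ cells, and 0 called higher. Over all genes, 13.6%, 13.9% and 13.3% were called lower in these comparisons, and 13.9%, 14.1% and 13.1% higher. Tek, an endothelial receptor gene on the list, averaged 5.28 in papillary cells, 9.77 in Dlk1- Sca1+ cells, 8.13 in Dlk1+ Sca1+ cells and 6.87 in reticular cells. Without it the other 7 averaged 5.61 to 5.72 in papillary cells, 5.73 to 6.15 in Dlk1- Sca1+ cells, 5.86 to 6.71 in Dlk1+ Sca1+ cells and 6.04 to 6.30 in reticular cells. Tie1, at 4.84 to 4.90, and Emcn, at 4.73 to 4.98, lay in papillary cells as near the low end of the table as Plat did. Unlike Plat, Tie1 averaged only 4.96, 5.35 and 5.07 in Dlk1- Sca1+, Dlk1+ Sca1+ and reticular cells, and Emcn 5.13, 5.29 and 5.02. Other listed markers lay higher in papillary cells, with Vwf at 5.19 to 5.39, Cdh5 at 5.55 to 5.98, Kdr at 5.64 to 5.92 and Esam at 5.90 to 6.07. Pecam1, which encodes the CD31 used for exclusion, lay between 6.94 and 7.09 in papillary cells and between 7.46 and 8.74 elsewhere. The list of 8 peaked in the Dlk1+ Sca1+ array of animal 2, with Pecam1 at 8.74, and Plat there was 10.27, between the values of the other animals. The 8 measured pericyte and smooth muscle markers averaged 6.64 to 6.79 in papillary cells, 7.20 to 7.47 in Dlk1- Sca1+ cells, 7.41 to 8.13 in Dlk1+ Sca1+ cells and 7.98 to 8.74 in reticular cells. The 8 skeletal muscle markers averaged 5.51 to 5.59 in papillary cells, 5.51 to 5.65 in Dlk1- Sca1+ cells, 5.88 to 5.90 in Dlk1+ Sca1+ cells and 6.20 to 6.37 in reticular cells. The 6 measured melanocyte and Schwann cell markers averaged 5.75 to 5.80 in papillary cells, 6.06 to 6.82 in Dlk1- Sca1+ cells, 6.07 to 6.56 in Dlk1+ Sca1+ cells and 5.83 to 5.96 in reticular cells. Papillary cells had 3 of the 8 muscle markers called lower and 0 higher against reticular cells, 2 lower and 1 higher against Dlk1+ Sca1+ cells, and 0 lower and 1 higher against Dlk1- Sca1+ cells. For the 6 melanocyte and Schwann markers the lower calls were 0, 1 and 3 in the same 3 comparisons, with 0 higher. For the 8 measured pericyte and smooth muscle markers the lower calls were 5, 4 and 4, and the higher calls 0, 1 and 1. The 8 keratinocyte markers had 0, 0 and 1 lower calls and 0 higher. The 2 measured erythroid markers averaged 6.63 to 6.77 in papillary cells and 6.58 to 7.92 in Dlk1- Sca1+ cells. They averaged 6.94 to 8.24 in Dlk1+ Sca1+ cells and 6.73 to 7.92 in reticular cells, with 0, 1 and 0 lower calls and 0 higher. Beside these counts, 13.3% to 13.9% of all genes were called lower and 13.1% to 14.1% higher. The part of any of these cell types in the differences of Plat or the genes below was not tested.

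Plau, the urokinase gene, did not share the Plat pattern. Its values were 6.77, 6.60 and 6.47 in papillary cells, 6.67, 6.13 and 6.18 in Dlk1- Sca1+ cells, 6.20, 6.18 and 6.31 in Dlk1+ Sca1+ cells, and 6.44, 6.41 and 6.19 in reticular cells. Papillary cells had the highest mean, 6.61 ± 0.15 (SD, n = 3), by 0.27 ± 0.13 (SE) over reticular, 0.38 over Dlk1+ Sca1+ and 0.29 over Dlk1- Sca1+ cells. They overlapped the Dlk1- Sca1+ arrays, where animal 1 stood above the other animals. That array also had the highest keratinocyte markers, 9.91 against 7.44 and 7.57 in the other Dlk1- Sca1+ arrays. Its 6 mast cell markers averaged 6.15 against 5.20 and 5.14, and its melanocyte and Schwann markers 6.82 against 6.32 and 6.06. The part of these cells in its Plau value was not tested. Among the populations without CD26, the differences were -0.12 for Dlk1+ Sca1+ minus reticular (limma, adjusted p = 0.787), -0.02 for Dlk1- Sca1+ minus reticular (adjusted p = 0.960, 95% interval -0.31 to 0.27) and 0.10 between the Sca1+ populations (adjusted p = 0.831). No order among these 3 populations held beyond their spread. A dimmer Plau probe set stayed between 3.95 and 4.40 on every array, near the low end of the table.

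Plaur, the urokinase receptor gene, was highest in the Sca1+ populations and lowest in papillary cells, with small steps between them. It read 8.84, 8.93 and 8.93 in papillary cells, 9.64, 9.63 and 9.63 in Dlk1- Sca1+ cells, 9.60, 9.56 and 9.49 in Dlk1+ Sca1+ cells, and 9.19, 9.30 and 9.12 in reticular cells. Papillary and reticular arrays overlapped with no other population. As a description, the papillary log2 difference was -0.30 from reticular, -0.65 from Dlk1+ Sca1+ and -0.73 from Dlk1- Sca1+ cells, with an SE of 0.07. Against reticular cells, Plaur was higher in Dlk1- Sca1+ cells by 0.43 ± 0.07 (limma, adjusted p = 0.000800), in 3 of 3 animals. In Dlk1+ Sca1+ cells it was higher by 0.35 ± 0.07 (limma, adjusted p = 0.00761), also in 3 of 3 animals. The first of these held in 23 of 23 alternative settings. The second held in 20 of 23 and was missed when animal 1 (adjusted p = 0.0954), animal 2 (0.0674) or animal 3 (0.139) was left out. The Sca1+ populations differed by 0.08, with a 95% interval from -0.07 to 0.24 (limma, adjusted p = 0.648).

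Serpinf1, the gene for pigment epithelium-derived factor, had the widest span of population means after Plat among the 5 measured members. It read 10.49, 10.15 and 10.14 in papillary cells, 11.59, 11.71 and 11.79 in Dlk1- Sca1+ cells, 12.25, 12.28 and 12.35 in Dlk1+ Sca1+ cells, and 11.99, 12.21 and 12.09 in reticular cells. Papillary arrays lay below all others. The papillary minus reticular difference was -1.84 ± 0.10 (SE), or 3.57-fold. It was -2.03, or 4.09-fold, against Dlk1+ Sca1+ cells and -1.44, or 2.71-fold, against Dlk1- Sca1+ cells. Unlike Plaur and the brighter Plat probe set, which were higher there, Serpinf1 was lower in Dlk1- Sca1+ than in reticular cells. That difference was -0.40 ± 0.10 (limma, adjusted p = 0.0146), with the Dlk1- Sca1+ value lower in 3 of 3 animals. It was also lower in Dlk1- Sca1+ than in Dlk1+ Sca1+ cells, by -0.60 ± 0.10 on the log2 scale (limma, adjusted p = 0.00258), and none of these groups overlapped.

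The Serpinf1 step from reticular cells passed in 19 of 23 alternative settings and was missed without animal 2 (adjusted p = 0.169), animal 3 (0.0890), Dlk1- Sca1+ array 1 (0.0609) or reticular array 2 (0.0641). The step between the Sca1+ populations passed in 21 of 23 and was missed without animal 2 (0.0513) or animal 3 (0.0596). Dlk1+ Sca1+ and reticular cells, the neighbours at the top, differed by 0.20, with a 95% interval from -0.02 to 0.42 (limma, adjusted p = 0.343). A second Serpinf1 probe set gave the same order, with -0.40 for Dlk1- Sca1+ minus reticular (adjusted p = 0.0199) and -0.68 for Dlk1- Sca1+ minus Dlk1+ Sca1+ cells (adjusted p = 0.00161).

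Serpinb2, the intracellular urokinase inhibitor gene, was near the floor everywhere. Its 12 values ran from 3.69 to 3.85, where the table began at 3.30. Population means differed by at most 0.05, and the groups overlapped in each of the 3 comparisons among the populations without CD26. A level this low gives no order of populations.

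**Figure D3:**
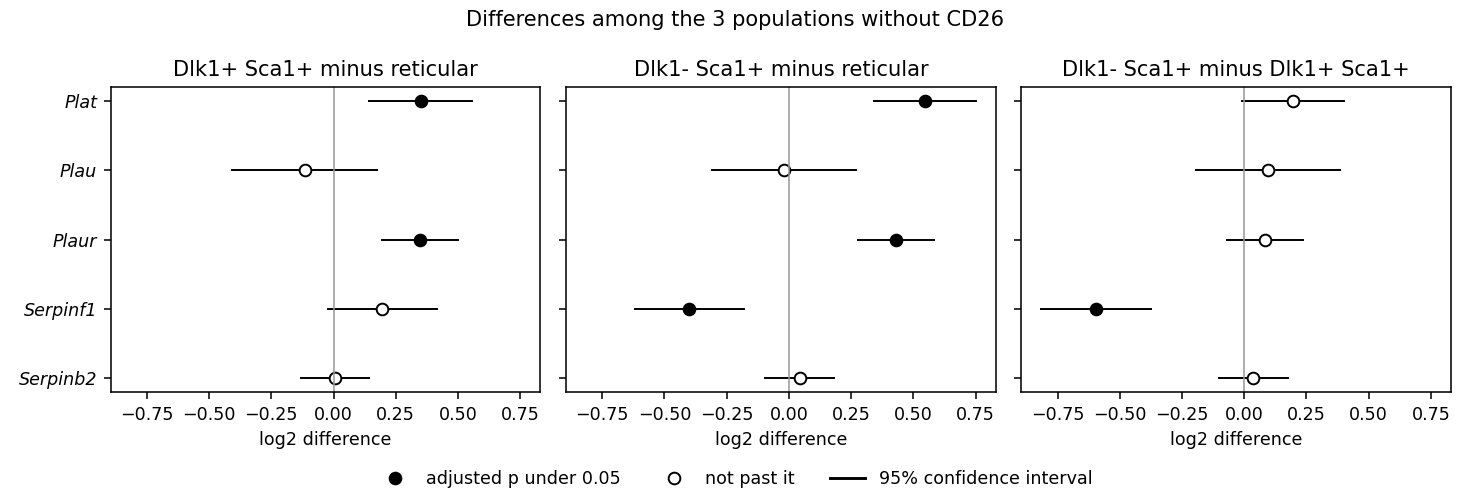
Log2 differences (x axis) of the 5 measured members (rows) for Dlk1+ Sca1+ minus reticular, Dlk1- Sca1+ minus reticular and Dlk1- Sca1+ minus Dlk1+ Sca1+ cells, from limma with 3 animals per population. Lines are 95% confidence intervals and filled points passed an adjusted p of 0.05, which Plat and Plaur did upward in the first pair of panels and Serpinf1 did downward in the last pair.

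Calls of the 5 measured members were counted in the 3 comparisons among populations without CD26, since the papillary comparisons chose the members. Dlk1+ Sca1+ cells had 2 of 5 members called higher than in reticular cells, Plat and Plaur, and 0 lower, while 4.06% of all genes were called higher and 4.37% lower. Dlk1- Sca1+ cells had 2 called higher than in reticular cells, Plat and Plaur, and Serpinf1 lower, while 9.36% of all genes were called higher and 8.8% lower. The Plat call there rests on the brighter probe set and was not met with the dimmer one. Between Dlk1- Sca1+ and Dlk1+ Sca1+ cells, only Serpinf1 of the 5 was called, lower, while 3.23% of all genes were called higher and 4.13% lower. The median member difference in these 3 comparisons was 0.20, 0.04 and 0.08, and that of all genes was within 0.01 of 0. The 3 comparisons share populations, so their calls are not independent.

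The genes nearest to Plat and Serpinf1 were ranked over the same 12 arrays, each gene centred on its own mean, by the root mean square distance on the log2 scale. This ranking uses every comparison, so it describes and tests nothing. Nearest to Plat were Akap12 (0.276), Fzd4 (0.349), Ms4a4d (0.439), Aoc3 (0.460) and Lgr5 (0.480), while the 100th gene stood at 1.39. Akap12, a kinase anchoring scaffold, averaged 6.12 in papillary cells, 11.24 in Dlk1- Sca1+ cells, 11.47 in Dlk1+ Sca1+ cells and 11.06 in reticular cells. Fzd4, a Wnt receptor, averaged 5.25, 10.17, 10.36 and 9.40 in the same order. Lgr5, an R-spondin receptor, averaged 5.03, 9.60, 10.54 and 9.66. All 5 were lowest in papillary cells and, unlike the brighter Plat probe set, had a higher mean in Dlk1+ Sca1+ than in Dlk1- Sca1+ cells. Nearest to Serpinf1 were Amigo2 (0.143), Il16 (0.152), Asap3 (0.163), Tspan11 (0.173) and Qpct (0.173), with the 100th gene at 0.334. Amigo2, an adhesion protein gene, averaged 6.30 in papillary cells, 7.72 in Dlk1- Sca1+ cells, 8.29 in Dlk1+ Sca1+ cells and 8.21 in reticular cells.

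**Figure D4:**
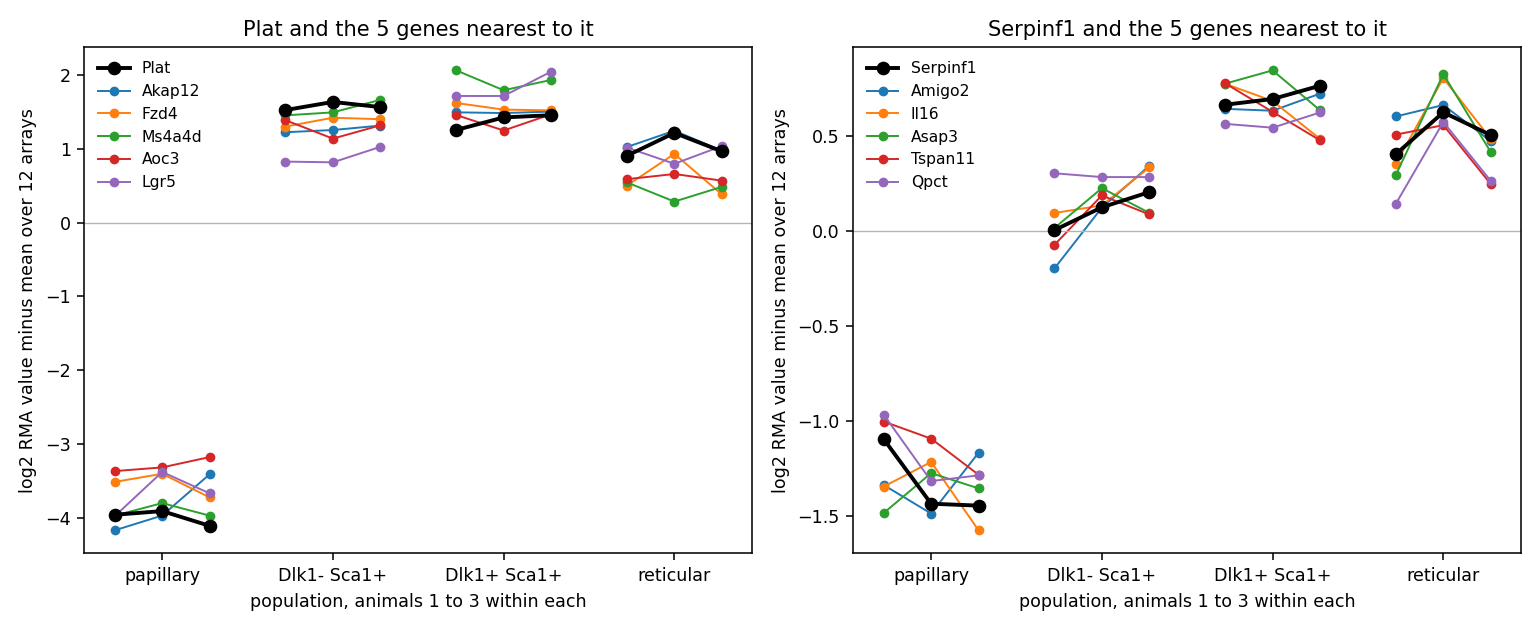
Log2 RMA values minus each gene's mean over 12 arrays (y axis) for Plat and its 5 nearest genes (left) and Serpinf1 and its 5 nearest genes (right), in papillary, Dlk1- Sca1+, Dlk1+ Sca1+ and reticular cells with animals 1 to 3 within each. All 12 genes drawn lie lowest in papillary cells, and the left axis covers a wider range than the right.

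Of 82 other genes on lists of the wider pathway, 72 were measured. Papillary cells had 12 of them higher and 21 lower than reticular cells, 12 higher and 22 lower than Dlk1+ Sca1+ cells, and 14 higher and 24 lower than Dlk1- Sca1+ cells. Their lower calls made up 29.2%, 30.6% and 33.3% of the measured genes, above the 13.3% to 13.9% of all genes. Higher calls made up 16.7%, 16.7% and 19.4%, against 13.1% to 14.1%. Dlk1+ Sca1+ cells had 11 higher and 10 lower than reticular cells, or 15.3% and 13.9% against 4.06% and 4.37% of all genes, and 9 calls in all without animal 3. Dlk1- Sca1+ cells had 11 higher and 12 lower than reticular cells, or 15.3% and 16.7% against 9.36% and 8.8%. Against Dlk1+ Sca1+ cells they had 10 higher and 10 lower, or 13.9% each way against 3.23% and 4.13%, but 13, 9 and 11 calls in all without animals 1, 2 and 3. The lists were drawn with earlier results of these data known.

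Other surface and secreted proteases were called in both directions in papillary cells, with 4 of the 11 measured higher and 3 lower in each of the 3 comparisons, where 13.1% to 14.1% of all genes were higher and 13.3% to 13.9% lower. Prss23, a secreted serine protease gene, averaged 10.76 ± 0.08 in papillary cells, 8.15 ± 0.34 in Dlk1- Sca1+ cells, 5.84 ± 0.44 in Dlk1+ Sca1+ cells and 7.19 ± 0.24 in reticular cells (SD, n = 3 each). All 6 of its differences were called, including 2.32 ± 0.21 (SE) for Dlk1- Sca1+ minus Dlk1+ Sca1+ cells (limma, adjusted p = 2.56e-05). Prss35, a related secreted protein without a full catalytic site, averaged 9.96 in papillary cells and 7.05 in reticular cells, a difference of 2.90 ± 0.27 (limma, adjusted p = 3.71e-06). It was lower in each Sca1+ population than in reticular cells, by -1.49 ± 0.27 in Dlk1- Sca1+ (adjusted p = 0.00184) and -1.42 ± 0.27 in Dlk1+ Sca1+ cells (adjusted p = 0.00553). Htra1, a secreted protease that cuts matrix proteins, was higher in papillary than in reticular cells by 1.70 ± 0.11 (adjusted p = 1.21e-07). Fap, a membrane peptidase known from activated fibroblasts, averaged 8.25 in papillary cells, 9.64 in Dlk1- Sca1+ cells, 10.47 in Dlk1+ Sca1+ cells and 11.11 in reticular cells, and every step in that order was called by limma. Plg, the plasminogen gene, lay between 4.80 and 5.24 on every array, with no call.

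Among genes for proteins that bind plasminogen, the activators or their receptor at the surface, papillary cells had 1 of the 8 measured higher and 2 lower than reticular cells, where 13.9% of all genes were higher and 13.6% lower. Dlk1- Sca1+ cells had 4 higher and 2 lower than reticular cells, beside 9.36% and 8.8% of all genes. Dlk1+ Sca1+ cells had 3 higher and 1 lower, beside 4.06% and 4.37%. Anxa2, whose protein binds plasminogen and tissue-type activator together with that of S100a10, averaged 10.63 in papillary cells, 11.54 in Dlk1- Sca1+ cells, 10.96 in Dlk1+ Sca1+ cells and 10.47 in reticular cells. It was higher than in reticular cells by 1.08 ± 0.08 in Dlk1- Sca1+ (limma, adjusted p = 1.11e-06) and 0.49 ± 0.08 in Dlk1+ Sca1+ cells (adjusted p = 0.00157). Papillary minus reticular was 0.16 (adjusted p = 0.163, and 0.0398 with the animal as a replicate block). Itgb3, an integrin subunit of the vitronectin receptor, averaged 8.63 in papillary cells, 10.61 in Dlk1- Sca1+ cells, 10.23 in Dlk1+ Sca1+ cells and 9.48 in reticular cells, and all 6 of its differences were called. Vtn, the gene for vitronectin, which binds the urokinase receptor, was lower than in reticular cells in all 3 other populations, by -1.25 ± 0.11 in papillary cells (limma, adjusted p = 2.56e-06), -1.09 in Dlk1- Sca1+ cells and -0.97 in Dlk1+ Sca1+ cells. Mrc2, a collagen uptake receptor that associates with the urokinase receptor, was lower in Dlk1- Sca1+ than in reticular cells by -0.73 ± 0.09 (adjusted p = 9.12e-05).

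Among the receptors that clear activators with their inhibitors, and a chaperone of them, 4 of 6 genes were measured. Papillary cells had 2 higher and 1 lower than reticular cells, beside 13.9% and 13.6% of all genes. They had 2 higher and 0 lower than Dlk1+ Sca1+ cells, beside 14.1% and 13.9%. Against Dlk1- Sca1+ cells they had 2 higher and 2 lower, beside 13.1% and 13.3%. Sorl1, a sorting receptor, averaged 10.17 in papillary cells and 8.16 in reticular cells, 2.02 ± 0.19 higher (limma, adjusted p = 3.10e-06), and papillary cells also exceeded Dlk1+ Sca1+ cells by 2.78 and Dlk1- Sca1+ cells by 2.36. Lrpap1, a chaperone of these receptors, was higher in papillary cells by 0.45 to 0.55 in the 3 comparisons. Lrp1, the main clearance receptor of tissue-type activator, varied little, from 11.20 to 11.52 over all arrays, with -0.21 ± 0.07 for papillary minus Dlk1- Sca1+ cells (adjusted p = 0.0433) as its only call. Papillary minus Dlk1+ Sca1+ was -0.19 for Lrp1 (adjusted p = 0.0557, and 0.0398 with the animal as a replicate block). Vldlr, which takes up the same complexes, averaged 6.55 in papillary cells, 7.08 in Dlk1- Sca1+ cells, 6.33 in Dlk1+ Sca1+ cells and 7.03 in reticular cells. Its papillary level was called lower than in reticular and in Dlk1- Sca1+ cells. Vldlr was also lower in Dlk1+ Sca1+ than in reticular cells by -0.70 ± 0.11 (adjusted p = 0.00105) and had a Dlk1- Sca1+ minus Dlk1+ Sca1+ difference of 0.74 ± 0.11 (adjusted p = 0.000681).

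Of 10 measured inhibitors on the list, papillary cells had 4 lower than reticular, 4 lower than Dlk1+ Sca1+ and 3 lower than Dlk1- Sca1+ cells, and 0 higher in each. Over all genes the lower calls made up 13.3% to 13.9% and the higher ones 13.1% to 14.1%. Tfpi2, an inhibitor of plasmin of the Kunitz type, averaged 4.82 ± 0.37 in papillary cells, 8.11 ± 0.46 in Dlk1- Sca1+ cells, 8.45 ± 0.31 in Dlk1+ Sca1+ cells and 7.49 ± 0.05 in reticular cells (SD, n = 3 each). Its papillary minus reticular difference was -2.67 ± 0.23 (limma, adjusted p = 1.40e-06). Timp1, whose protein inhibits metalloproteases rather than plasmin, was lower in papillary than in reticular cells by -1.71 ± 0.11 (adjusted p = 1.67e-07). Tfpi, an inhibitor of the tissue factor pathway, was lower by -0.55 ± 0.12 (adjusted p = 0.00305). Serpinf2, the gene for the plasmin inhibitor antiplasmin, was lower than in reticular cells by -0.50 ± 0.17 (adjusted p = 0.0432). Serpinf2 in papillary minus Dlk1+ Sca1+ was -0.36 (adjusted p = 0.152) and in papillary minus Dlk1- Sca1+ -0.39 (adjusted p = 0.119), and with the animal as a replicate block these were 0.0292 and 0.0201.

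**Figure D5:**
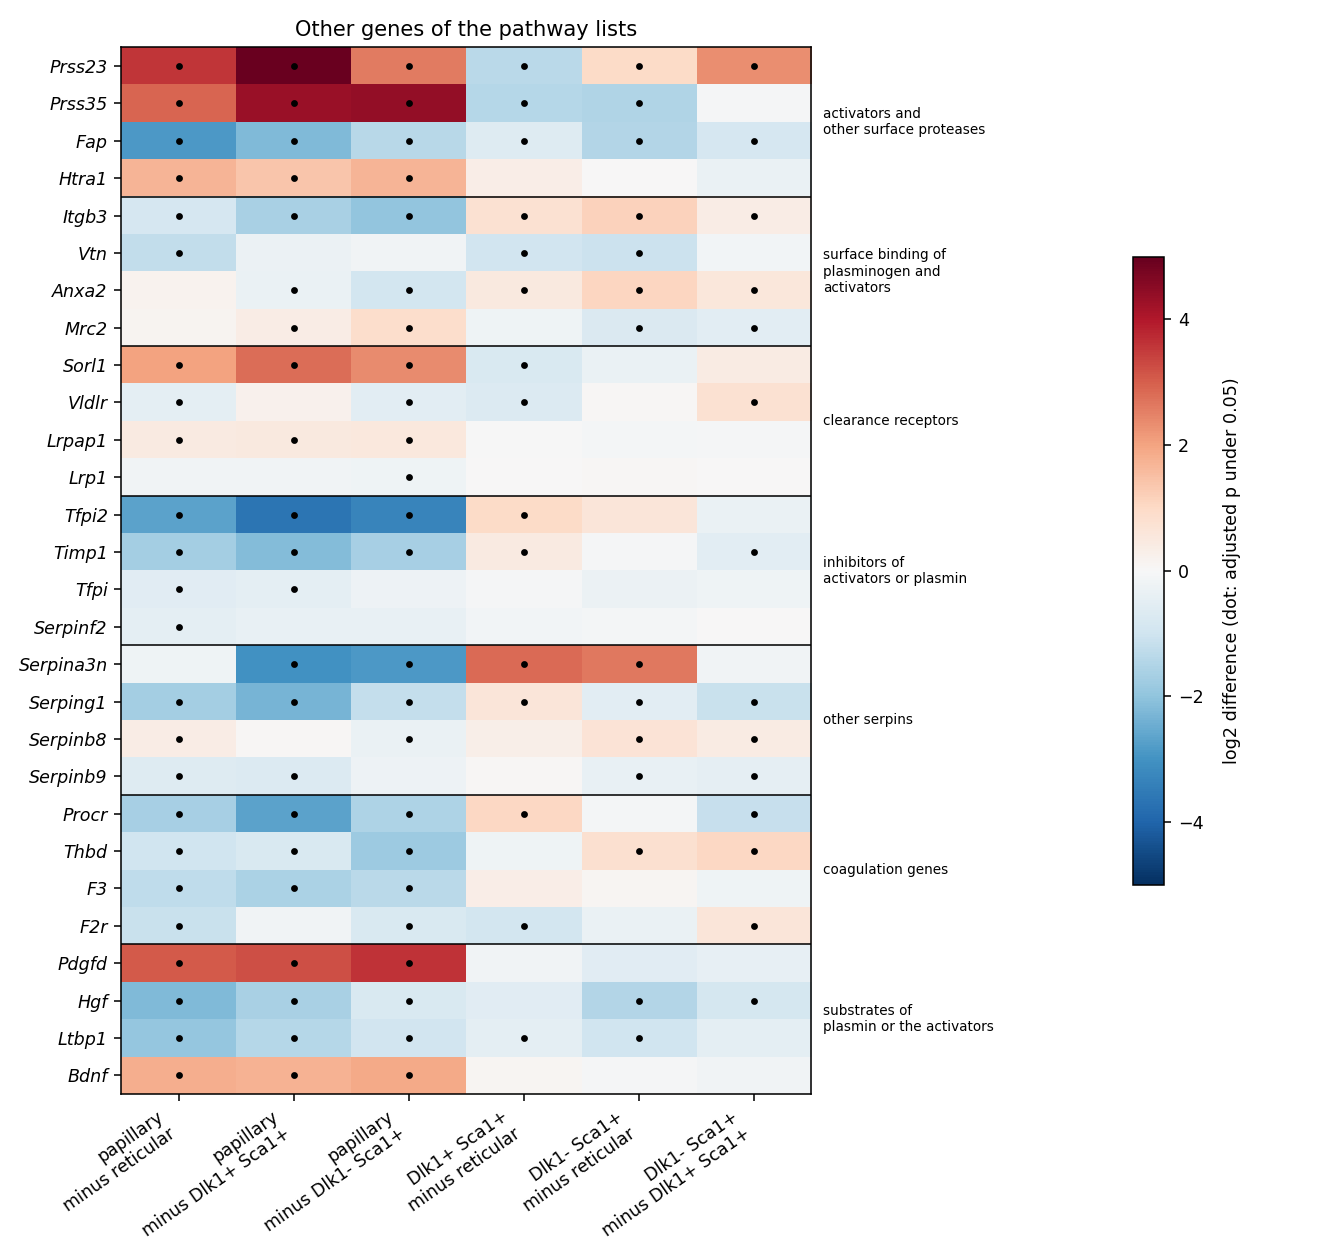
Log2 differences (colour, red for higher and blue for lower in the population named first) of the 28 named genes of the 7 wider lists (rows) in the 6 comparisons (columns), from limma with 3 animals per population. A dot marks an adjusted p under 0.05, and Prss23, Fap, Itgb3 and Serping1 have a dot in every column.

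Of 11 other serpin genes measured, papillary cells had 1 higher and 2 lower than reticular cells, beside 13.9% and 13.6% of all genes. They had 0 higher and 3 lower than Dlk1+ Sca1+ cells, beside 14.1% and 13.9%, and 1 higher and 4 lower than Dlk1- Sca1+ cells, beside 13.1% and 13.3%. Dlk1- Sca1+ cells had 3 higher and 2 lower than reticular cells, beside 9.36% and 8.8%, and Dlk1+ Sca1+ cells 2 higher and 0 lower, beside 4.06% and 4.37%. Serpina3n, a secreted protease inhibitor gene, read 5.84, 6.15 and 5.95 in papillary cells, 8.58, 8.72 and 9.20 in Dlk1- Sca1+ cells, an average of 9.01 ± 0.02 (SD, n = 3) in Dlk1+ Sca1+ cells, and 6.02, 6.44 and 6.08 in reticular cells. Papillary and reticular arrays overlapped, and every Sca1+ array lay above them. Against reticular cells the difference was 2.65 ± 0.15 in Dlk1- Sca1+ (limma, adjusted p = 1.27e-07) and 2.83 ± 0.15 in Dlk1+ Sca1+ cells (adjusted p = 3.94e-07). Serping1, the gene for the complement C1 inhibitor, ordered the populations as Serpinf1 did, at 8.76 in papillary cells, 9.95 in Dlk1- Sca1+ cells, 11.07 in Dlk1+ Sca1+ cells and 10.47 in reticular cells. Its Dlk1- Sca1+ minus Dlk1+ Sca1+ difference was -1.12 ± 0.11 (adjusted p = 5.27e-05). Serpinb8, an intracellular serpin gene, was higher in Dlk1- Sca1+ than in reticular cells by 0.70 ± 0.11 (adjusted p = 0.000458). Serpinb9, which encodes a granzyme inhibitor, was lower there by -0.38 ± 0.11 (adjusted p = 0.0247). Papillary minus Dlk1- Sca1+ was -0.26 for Serpinb9 (adjusted p = 0.105, and 0.0494 with the animal as a replicate block).

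Coagulation produces the fibrin that plasmin removes. Of 13 measured genes on that list, papillary cells had 4 lower and 0 higher than reticular cells, beside 13.6% and 13.9% of all genes. They had 3 lower and 0 higher than Dlk1+ Sca1+ cells, beside 13.9% and 14.1%, and 4 lower and 1 higher than Dlk1- Sca1+ cells, beside 13.3% and 13.1%. Procr, the protein C receptor gene, averaged 4.87 in papillary cells, 6.42 in Dlk1- Sca1+ cells, 7.56 in Dlk1+ Sca1+ cells and 6.54 in reticular cells, and was -1.67 ± 0.20 in papillary minus reticular cells (limma, adjusted p = 2.99e-05). Thbd, the gene for thrombomodulin, had a papillary minus Dlk1- Sca1+ difference of -1.81 ± 0.11 (adjusted p = 5.44e-08) and exceeded the reticular level in Dlk1- Sca1+ cells by 0.81 ± 0.11 (adjusted p = 0.000197). Thbd and Procr are also known from vessel lining cells, whose markers are given beside Plat, and the part of such cells in these differences was not tested. F3, the tissue factor gene, was lower in papillary than in reticular cells by -1.26 ± 0.32 (adjusted p = 0.00944), and F2r, a thrombin receptor gene, by -1.11 ± 0.15 (adjusted p = 7.84e-05). F2r in Dlk1- Sca1+ minus reticular cells was -0.33 (adjusted p = 0.164, and 0.0261 with the animal as a replicate block).

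Growth factor and matrix genes whose products plasmin or the activators can cut went both ways in papillary cells. Of 15 measured, 4 were higher and 5 lower than in reticular cells, beside 13.9% and 13.6% of all genes. Against Dlk1+ Sca1+ cells 4 were higher and 6 lower, beside 14.1% and 13.9%. Against Dlk1- Sca1+ cells 5 were higher and 5 lower, beside 13.1% and 13.3%. Dlk1- Sca1+ cells had 0 higher and 5 lower than reticular cells, beside 9.36% and 8.8%. Dlk1+ Sca1+ cells had 1 higher and 3 lower, beside 4.06% and 4.37%. In Dlk1- Sca1+ minus Dlk1+ Sca1+ cells 2 were higher and 3 lower, beside 3.23% and 4.13%. Pdgfd, a platelet-derived growth factor gene whose product urokinase can activate, averaged 9.02 ± 0.21 in papillary cells, 5.40 ± 0.38 in Dlk1- Sca1+ cells, 5.80 ± 0.38 in Dlk1+ Sca1+ cells and 5.97 ± 0.25 in reticular cells (SD, n = 3 each). Papillary minus reticular was 3.06 ± 0.21 (limma, adjusted p = 2.60e-07), while Dlk1- Sca1+ minus reticular was -0.57 (adjusted p = 0.0919, and 0.0095 with the animal as a replicate block). Bdnf, a neurotrophin gene whose precursor plasmin can cleave, was higher in papillary than in reticular cells by 1.83 ± 0.20 (adjusted p = 1.18e-05). Hgf, the hepatocyte growth factor gene, averaged 5.59 in papillary cells, 6.33 in Dlk1- Sca1+ cells, 7.22 in Dlk1+ Sca1+ cells and 7.79 in reticular cells. Its papillary minus reticular difference was -2.20 ± 0.17 (adjusted p = 4.97e-07), and Dlk1+ Sca1+ minus reticular was -0.56 (adjusted p = 0.0561, and 0.0460 with the animal as a replicate block). Ltbp1, the gene for a matrix protein that anchors latent TGF-beta, was lower in papillary than in reticular cells by -1.93 ± 0.14 (adjusted p = 3.21e-07).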

How the data were processed

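Deposited values were log2 expression values, which the authors made with RMA through affy, as the submitters' processing notes name them without versions. RMA subtracts background, equalizes array distributions by quantiles and summarizes probes. It does not put probe sets of different genes on a common scale, so levels cannot be compared between genes. No further normalization or filter was applied. Of 45141 probe sets, 104 controls, 551 with several symbols and 15588 unnamed here were left out, and the brightest of each gene's probe sets was kept (17097 genes). No build is named in the labels or headers.

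All 12 arrays entered 1 fit of population means in limma 3.58.1, run under R 4.3.3. The p-values were adjusted by Benjamini-Hochberg over all genes within a comparison and called under 0.05. Members and gene lists were chosen with earlier results of these data known. Members carry no test where papillary cells are compared, since that difference chose them. Named from each wider list were up to 4 called genes by largest difference, with Plg and Lrp1, and for members spanning over 1 log2 unit the 5 nearest genes. The number of arrays, 3 per population, limits the precision.

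Labels give each animal 1 array per population. Deviations from population means correlated across genes with a mean r of 0.266 between arrays of the same animal (0.086 to 0.432, 17 of 18 pairs above 0.1). The fit was tested on simulated data. Alternatives were the animal as a block, array centring, repeated quantile normalization, a filter on dim genes, other uses of probe sets, a trended robust prior, the 6 arrays of a comparison alone, and leaving out animals or arrays.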

Additional observations from a re-analysis of the deposited data

How the results depend on the processing

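Of the counts of calls, those of the comparisons between populations without CD26 moved most. Members called in Dlk1+ Sca1+ minus reticular numbered 2, and 1 with only the 6 arrays of that comparison. They ranged from 0 to 2 when animals or single arrays were left out, and without animals 1, 2 and 3 the count of 0 stood beside 2, 2 and 1 members at an unadjusted p under 0.05 in limma. Members called in Dlk1- Sca1+ minus Dlk1+ Sca1+ ranged from 0 to 1, and at 0 (without animal 2 or 3) 1 member had an unadjusted p under 0.05. Other pathway genes called ranged, when animals or arrays were left out, from 9 to 21 in Dlk1+ Sca1+ minus reticular and from 9 to 22 in Dlk1- Sca1+ minus Dlk1+ Sca1+. Those fits have fewer samples by construction.

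With the animal as a replicate block, 2, 3 and 1 members were called in Dlk1+ Sca1+ minus reticular, Dlk1- Sca1+ minus reticular and Dlk1- Sca1+ minus Dlk1+ Sca1+, and the paired fit changed no member's call. It changed no other call among the named genes than those given in the report beside their values and those of Vtn (papillary minus Dlk1+ Sca1+, adjusted p = 0.0257), Sorl1 (Dlk1- Sca1+ minus Dlk1+ Sca1+, 0.0473) and Ltbp1 (the same comparison, 0.0175), which it added. Of the member differences recomputed, 656 kept their direction and side of the threshold or, untested, moved by less than the spread over animals, 20 missed the threshold and 8 moved by more than that spread. The filter on the dimmest 25% of genes removed Serpinb2, which has no value there. Plat taken as the mean of its probe sets differed by -3.53 in papillary minus reticular cells, against -5.03 with the brighter probe set.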
